A study of Homo sapiens with 8 samples.

Results

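Cohesin is the ring-shaped protein complex that holds sister chromatids together from S phase until anaphase. The genes described here are 10 that encode its core subunits and the factors that regulate and establish cohesion: SMC1A, SMC3, RAD21, STAG1, STAG2, PDS5A, PDS5B, ESCO1, ESCO2 and CDCA5. They were taken as a named list and read on probe sets that carry exactly 1 gene symbol, using the brightest probe set where a gene had several. All 10 were found, each on 1 probe set, among 18417 genes measured in this way.

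T47D, a human breast cancer line of luminal type that carries the estrogen receptor, was the source of the RNA, which was hybridised to Affymetrix Human Gene 1.0 ST arrays. There were 4 groups of 2 arrays: cells given 17β-HSD1 siRNA and then E2, cells given 17β-HSD1 siRNA and then vehicle, and cells given control siRNA followed by E2 or by vehicle. 17β-HSD1, encoded by HSD17B1, reduces estrone to estradiol (E2). Every group had spent 2 days in charcoal-treated, steroid-deprived medium and was reverse-transfected with 200 nM siRNA (a mix of siRNAs for 17β-HSD1), so the controls carry a transfection with scrambled siRNA as well. At 48 h the medium was changed to one with 1 nM E2 or with ethanol, and RNA was taken 2 days later. The arrays therefore record bulk RNA of 1 cell line, in which fewer cycling cells and less RNA per cell cannot be told apart. The labels mention 2 culture experiments and number the replicates, but do not tie an array to an experiment.

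The SMC1 and SMC3 proteins form the arms of the ring, RAD21 closes it and is the subunit cut at anaphase, and STAG1 or STAG2 completes the core complex. PDS5A and PDS5B bind the ring and control both its release and its stabilisation. During replication the acetyltransferases ESCO1 and ESCO2 acetylate SMC3, after which sororin, the product of CDCA5, is recruited and opposes release. ESCO1 acts through much of the cell cycle, whereas ESCO2 and sororin are proteins of S and G2 phase that are degraded later in the cycle. In estrogen-dependent breast cancer cells E2 is known to drive entry into the cell cycle.

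Values are log2 signals as deposited, and a change is a log2 difference ± SE from a limma fit over all 8 arrays and 21214 probe sets, with Benjamini-Hochberg adjustment over all of them. A gene is said to have risen or fallen where the adjusted p was below 0.05. Averaged changes set 4 arrays against 4. HSD17B1, the targeted gene, was lower in all 4 arrays of 17β-HSD1 siRNA (8.32 to 8.41) than in all 4 of control siRNA (8.56 to 9.35), with an averaged change of -0.56 ± 0.16 that did not pass (limma adjusted p = 0.221). The first array of 17β-HSD1 siRNA with vehicle lay away from the others, correlating with them at 0.973 on average, where each of the remaining 7 arrays averaged 0.981 to 0.988. The mean log2 signal over the 8 luminal epithelial markers, ESR1, GATA3, FOXA1 and keratin genes among them, was 11.57 to 11.99 across the arrays. ESR1 was the lowest of the 8, at 8.05 to 9.13, a range that the fibroblast marker COL1A1 overlapped (8.77 to 9.05). For marker lists of basal (5 measured genes), fibroblast (6), immune (5) and endothelial cells (6) the mean was 7.12 to 7.50, 6.62 to 6.86, 6.19 to 6.62 and 6.37 to 6.74, and no gene of these 4 lists passed in either averaged contrast.

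CDCA5, the sororin gene, had the largest E2 change of the 10 genes. Its signal was 8.62 and 8.55 in 17β-HSD1 siRNA with E2, against 7.38 and 7.62 in 17β-HSD1 siRNA with vehicle. In control siRNA it was 8.97 and 8.92 with E2, against 7.70 and 7.86 with vehicle. All 4 E2 arrays thus lay above all 4 vehicle arrays. The averaged rise was 1.12 ± 0.11, or 2.18-fold (limma adjusted p = 0.000918). CDCA5 also rose within each siRNA, by 1.08 ± 0.15 after 17β-HSD1 siRNA and by 1.17 ± 0.15 with control siRNA (limma adjusted p = 0.0253 and 0.0331). Both within-siRNA calls were lost when any 1 of the 4 arrays compared was left out. Such a fit sets a single array against 2, so the losses are not a measure of CDCA5 alone. Without 17β-HSD1 siRNA, vehicle replicate 1 the rise after 17β-HSD1 siRNA was 0.96 ± 0.14. The call in control siRNA was also lost without either array of 17β-HSD1 siRNA with E2. The averaged call held without each array in turn, with adjusted p between 0.00157 and 0.011.

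The 250 bases upstream of the CDCA5 start are shown because CDCA5 changed most with E2, beside those of SMC3, a core subunit gene whose E2 change did not pass. Both are read 5′ to 3′ from RefSeq windows on GRCh38.p14. Windows were read for 7 of the 10 genes. ESCO1 had no entry, and ESCO2 and RAD21 were left out of the search, so their upstream motifs were not tested. CDCA5 lies at chr11:65084041-65084290 on the minus strand and SMC3 at chr10:110567445-110567694 on the plus strand.
CDCA5: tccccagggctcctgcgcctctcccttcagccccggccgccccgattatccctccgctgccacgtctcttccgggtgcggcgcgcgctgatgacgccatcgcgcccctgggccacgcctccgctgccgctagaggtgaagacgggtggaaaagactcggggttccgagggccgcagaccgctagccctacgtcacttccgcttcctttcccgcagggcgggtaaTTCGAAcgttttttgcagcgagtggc
SMC3: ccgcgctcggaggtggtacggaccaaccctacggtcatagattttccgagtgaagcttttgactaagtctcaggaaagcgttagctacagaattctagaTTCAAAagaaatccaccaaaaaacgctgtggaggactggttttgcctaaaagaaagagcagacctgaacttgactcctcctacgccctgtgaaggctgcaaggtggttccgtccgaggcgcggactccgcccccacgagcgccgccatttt
Capitals mark a CHR (cell cycle genes homology region) hexamer, which repressor and activator complexes of cell cycle genes are known to bind. CDCA5 carries the spelling TTCGAA, its first base 26 bases before the start, which 1.19% of 35116 such upstream windows hold. SMC3 carries TTTGAA, written TTCAAA on the strand shown, 151 bases before the start, a spelling in 13.3% of windows. The search read both strands and also took CCAAT (the CCAAT box), TTTCGCGC or TTTGGCGC (E2F sites) and the palindromic consensus of the estrogen response element with a spacer of any bases. TTCGAA was added to it after the CDCA5 window had been read. CCAAT stood in an upstream window of STAG1, STAG2, PDS5A and PDS5B, a match that 32.0% of windows hold. The E2F spelling TTTGGCGC stood in 1 window of STAG2, and in 0.55% of all windows. No estrogen response element of that consensus was found in these windows of the 7 genes, and 0.0399% of all windows hold one. STAG2 had 3 windows, and SMC1A had 2 that overlap.

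ESCO2, the S-phase acetyltransferase gene, rose with E2 and fell with 17β-HSD1 siRNA. Its signal was 6.66 and 7.08 in 17β-HSD1 siRNA with E2 and 6.29 and 6.20 in 17β-HSD1 siRNA with vehicle. Control siRNA gave 7.57 and 7.96 with E2 and 7.04 and 7.03 with vehicle. Within each medium both 17β-HSD1 siRNA arrays lay below both control arrays. Across media they overlapped, since the second array of 17β-HSD1 siRNA with E2 was as high as control cells in vehicle. From high to low the groups ran control with E2, control with vehicle, 17β-HSD1 siRNA with E2 and 17β-HSD1 siRNA with vehicle, and the middle pair overlapped.

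The averaged E2 rise of ESCO2 was 0.68 ± 0.13, or 1.60-fold (limma adjusted p = 0.0239). It was 0.63 ± 0.18 after 17β-HSD1 siRNA and 0.72 ± 0.18 with control siRNA, neither of which passed alone (limma adjusted p = 0.402 and 0.198). The averaged change with 17β-HSD1 siRNA was -0.84 ± 0.13, or 0.558-fold (limma adjusted p = 0.0197). That change was -0.89 ± 0.18 in E2 and -0.79 ± 0.18 in vehicle, which did not pass alone (limma adjusted p = 0.257 and 0.318). The test of a difference in E2 response between the siRNAs (interaction) gave -0.10 ± 0.26 for ESCO2 (95% interval -0.66 to 0.47, limma adjusted p = 1).

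Neither ESCO2 call held in every fit with 1 array left out, each of which leaves 1 group with a single array. Some were lost where the change was no smaller. The siRNA change was -0.95 without 17β-HSD1 siRNA, E2 replicate 2, and the E2 change was 0.70 without 17β-HSD1 siRNA, vehicle replicate 1. The E2 change was 0.57 to 0.78 without each array in turn, and its adjusted p rose above the threshold, to between 0.0567 and 0.146, without either control siRNA, vehicle array, without either 17β-HSD1 siRNA, vehicle array, or without replicate 2 of either E2 group. The siRNA change was -0.95 to -0.74, and its call was lost without control siRNA, vehicle replicate 1 (adjusted p = 0.0652), without 17β-HSD1 siRNA, vehicle replicate 1 (0.0597) and without 17β-HSD1 siRNA, E2 replicate 1 (0.124) or 2 (0.0601). ESCO2's direction was the same under all of these.

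**Figure D1:**
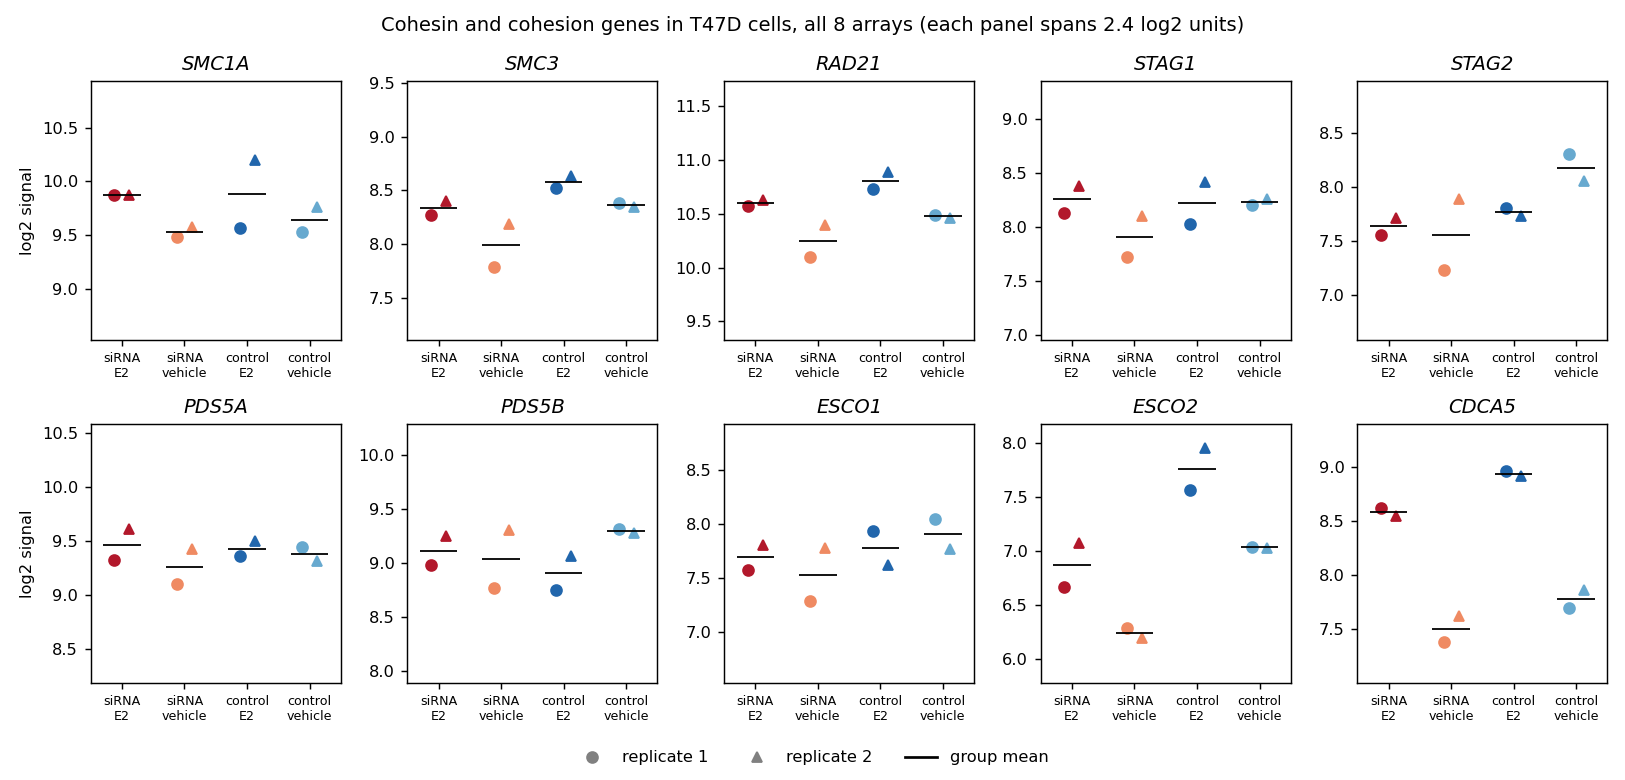
The log2 signal of the 10 genes in each array, by group (17β-HSD1 siRNA with E2 and with vehicle, control siRNA with E2 and with vehicle), with circles for replicate 1, triangles for replicate 2 and a line at the mean of 2 arrays. In CDCA5 every E2 array (8.55 to 8.97) lies above every vehicle array (7.38 to 7.86), and in ESCO2 the 17β-HSD1 siRNA arrays lie below the control arrays of the same medium.

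ESCO1, the acetyltransferase gene related to ESCO2, had an averaged change of 0.02 ± 0.14 with E2 (95% interval -0.29 to 0.33) and of -0.23 ± 0.14 with 17β-HSD1 siRNA (-0.54 to 0.08), and neither change passed. Its signal was 7.57 and 7.81 in 17β-HSD1 siRNA with E2, 7.28 and 7.78 in 17β-HSD1 siRNA with vehicle, 7.94 and 7.62 in control siRNA with E2, and 8.04 and 7.77 in control siRNA with vehicle. No neighbouring groups in its order were apart. Set against each other array by array, the E2 change of ESCO2 exceeded that of ESCO1 by 0.66 ± 0.24 (95% interval -0.02 to 1.33, 4 residual degrees of freedom). The siRNA change of ESCO2 was lower than that of ESCO1 by 0.61 on the log2 scale, a difference of -0.61 ± 0.24 (-1.29 to 0.06). Both intervals include 0, so 8 arrays did not separate the 2 acetyltransferase genes at this precision.

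None of the 5 core subunit genes passed in either averaged contrast. RAD21 came nearest with E2. It had 10.57 and 10.63 in 17β-HSD1 siRNA with E2, against 10.10 and 10.39 in 17β-HSD1 siRNA with vehicle, and 10.73 and 10.88 in control siRNA with E2, against 10.49 and 10.46 in control siRNA with vehicle. Its E2 arrays all lay above its vehicle arrays, by an average of 0.34 ± 0.11 (limma adjusted p = 0.233), and its change with 17β-HSD1 siRNA was -0.22 ± 0.11 (0.585). RAD21 and CDCA5 shared 1 order of groups, control with E2, 17β-HSD1 siRNA with E2, control with vehicle, 17β-HSD1 siRNA with vehicle, in which no neighbours overlapped.

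The SMC3 signal was 8.27 and 8.40 in 17β-HSD1 siRNA with E2, 7.79 and 8.19 in 17β-HSD1 siRNA with vehicle, 8.52 and 8.63 in control siRNA with E2, and 8.38 and 8.34 in control siRNA with vehicle. Its changes were 0.28 ± 0.12 with E2 and -0.31 ± 0.12 with 17β-HSD1 siRNA (limma adjusted p = 0.478 and 0.396). SMC1A, whose product pairs with SMC3, had changes of 0.29 ± 0.14 and -0.06 ± 0.14 (0.603 and 0.967). SMC1A read 9.56 and 10.20 in the E2 arrays of control siRNA, and that spread exceeded its averaged E2 change.

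The alternative subunit genes STAG1 and STAG2 had E2 changes of opposite sign, 0.17 ± 0.13 and -0.17 ± 0.14, and neither passed (limma adjusted p = 0.911 and 0.935). STAG2 read 7.56 and 7.71 in 17β-HSD1 siRNA with E2, 7.23 and 7.89 in 17β-HSD1 siRNA with vehicle, 7.80 and 7.73 in control siRNA with E2, and 8.30 and 8.06 in control siRNA with vehicle. Control cells in vehicle thus had the highest STAG2 signals, above all other arrays. Its change with 17β-HSD1 siRNA was -0.38 ± 0.14 (limma adjusted p = 0.41), and that of STAG1 was -0.15 ± 0.13 (0.883).

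PDS5A and PDS5B, which encode the paired regulators of release, showed no change past the threshold. The PDS5A values were 0.13 ± 0.12 with E2 and -0.04 ± 0.12 with 17β-HSD1 siRNA, and the PDS5B values -0.16 ± 0.14 and -0.03 ± 0.14 (limma adjusted p from 0.945 to 0.989). The intervals of the siRNA changes ran from -0.30 to 0.22 for PDS5A and from -0.34 to 0.28 for PDS5B. Array by array, PDS5B minus PDS5A changed by -0.28 ± 0.07 with E2 (95% interval -0.48 to -0.08) and by 0.01 ± 0.07 with 17β-HSD1 siRNA. For STAG2 minus STAG1 the E2 value was -0.34 ± 0.16 (-0.77 to 0.10). These values are descriptive. In control siRNA PDS5B had 8.75 and 9.07 with E2, against 9.31 and 9.28 with vehicle, and both E2 arrays were lower. After 17β-HSD1 siRNA it had 8.98 and 9.25 with E2, against 8.77 and 9.30 with vehicle, which overlap.

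**Figure D2:**
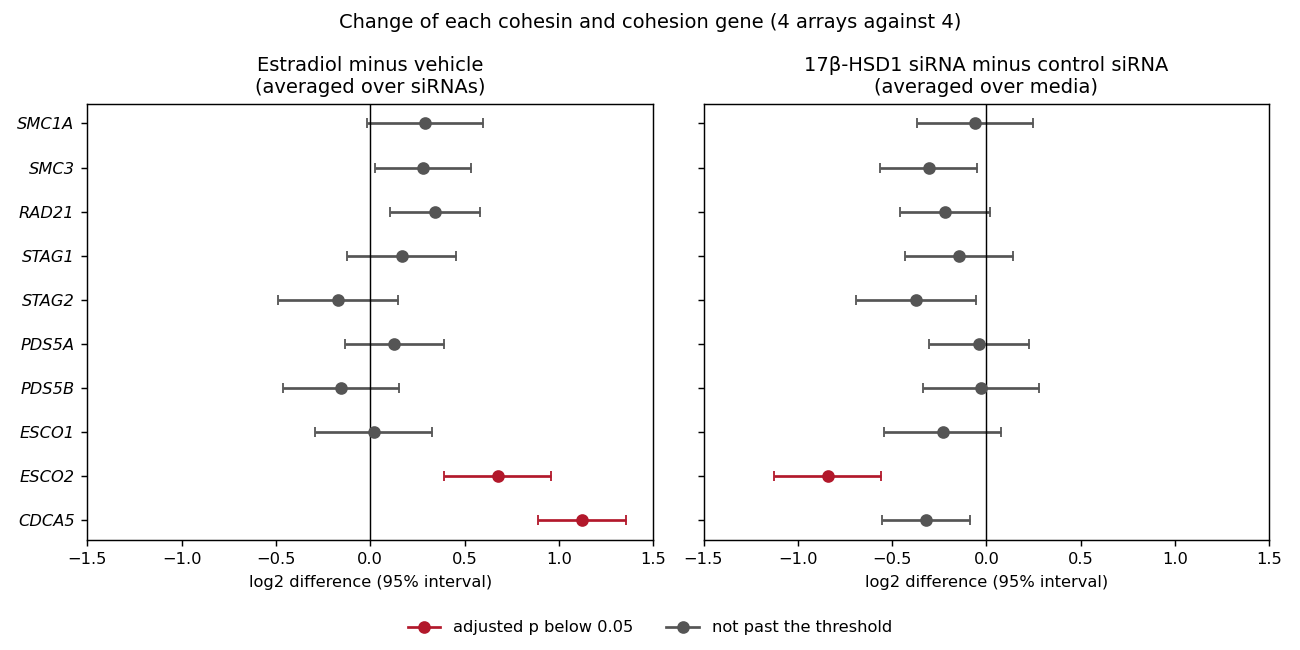
Averaged log2 change of each gene with its 95% interval from the fit, for E2 minus vehicle (left) and 17β-HSD1 siRNA minus control siRNA (right), 4 arrays against 4, with red for an adjusted p below 0.05. CDCA5 (1.12) and ESCO2 (0.68) pass with E2 and ESCO2 (-0.84) passes with 17β-HSD1 siRNA.

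Counted together, 2 of the 10 genes rose with E2 in the averaged contrast, against 1.32% of the 21214 probe sets tested, and 8 did not pass. With 17β-HSD1 siRNA 1 of 10, ESCO2, fell, against 0.217% of probe sets. ESCO2 is also 1 of the 2 that rose with E2. It was singled out with earlier results of these data known, so these shares give scale and are not evidence of enrichment. The median change was 0.22 with E2 and -0.22 with 17β-HSD1 siRNA, where the medians over all genes were -0.02 and 0.01. The E2 median dropped to 0.12 when the second array of control siRNA with E2 was left out. It was 0.13 when the first of 17β-HSD1 siRNA with vehicle was, with 7 of the 10 values positive in place of 8. Groups that did not overlap were found for 2 genes upward with E2, CDCA5 and RAD21, against 2.99% of genes. No gene had non-overlapping groups in the averaged siRNA contrast, against 2.17% of genes downward. After 17β-HSD1 siRNA alone 1 gene rose with E2 (0.269% of probe sets), and with control siRNA 1 did (0.0707%), CDCA5 each time. Without overlap, 6 genes were higher with E2 after 17β-HSD1 siRNA (12.6% of genes), and with control siRNA 4 were higher (16.7%) and 2, STAG2 and PDS5B, lower (19.0%). The contrasts share arrays, so their values are given side by side and not as separate evidence.

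Within a single medium the limma fit called none of the 10 genes for 17β-HSD1 siRNA, in E2 or in vehicle (0.0% of probe sets each). Arrays that did not overlap were lower for 5 of the 10 in E2 (19.9% of genes) and for 6 in vehicle (12.0%). At an unadjusted p below 0.05 there were 2 genes in E2, ESCO2 and CDCA5, and 3 in vehicle, ESCO2, SMC3 and STAG2, against 4.61% and 5.45% of probe sets. The interaction gave 0 of 10 in limma (0.0% of probe sets), also at an unadjusted p below 0.05 (0.66% of probe sets). Its values ran from -0.10 for ESCO2 to 0.49 for STAG2, and from -0.20 for CDCA5 to 0.20 for PDS5B without 17β-HSD1 siRNA, vehicle replicate 1, where STAG2 was at 0.16. In both fits every adjusted p was 1, so these data do not show that the E2 response of any of the 10 genes differed between siRNAs.

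The rise and fall of ESCO2 were larger than those of the core subunit genes on average. ESCO2 was also the dimmest of the 10 genes, with a mean signal of 6.98 that exceeded 33.6% of all genes. Means of the core genes ran from 7.78 (STAG2) to 10.53 (RAD21). The mean of the 5 core genes had a change of 0.18 ± 0.11 with E2 and of -0.22 ± 0.11 with 17β-HSD1 siRNA. Array by array, the E2 change of ESCO2 exceeded the core mean by 0.49 ± 0.14. Its siRNA change differed from the core mean by -0.62 ± 0.14. CDCA5 exceeded the core mean by 0.94 ± 0.10 with E2, whereas its siRNA change differed by -0.10 ± 0.10. These differences are descriptive and were not tested, because the contrast of ESCO2 with the core genes was chosen with earlier results of these data known.

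One array weighed on many of the smaller changes. In replicate 1 of 17β-HSD1 siRNA with vehicle 8 of the 10 genes had their lowest value, and a median deviation of -0.44 from the gene means. That array held the lowest value for 21.7% of all genes and the highest for 37.7%. Without it, the median siRNA change of the 10 genes was -0.13 in place of -0.22, with 8 of 10 negative in place of 10. In vehicle alone the median was -0.13 in place of -0.30. STAG2 was then at -0.21 ± 0.10, and PDS5A and PDS5B at 0.04 ± 0.11 and 0.10 ± 0.12. ESCO2 was at -0.86 ± 0.14 without it, as large as with it, although its call was then lost.

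**Figure D3:**
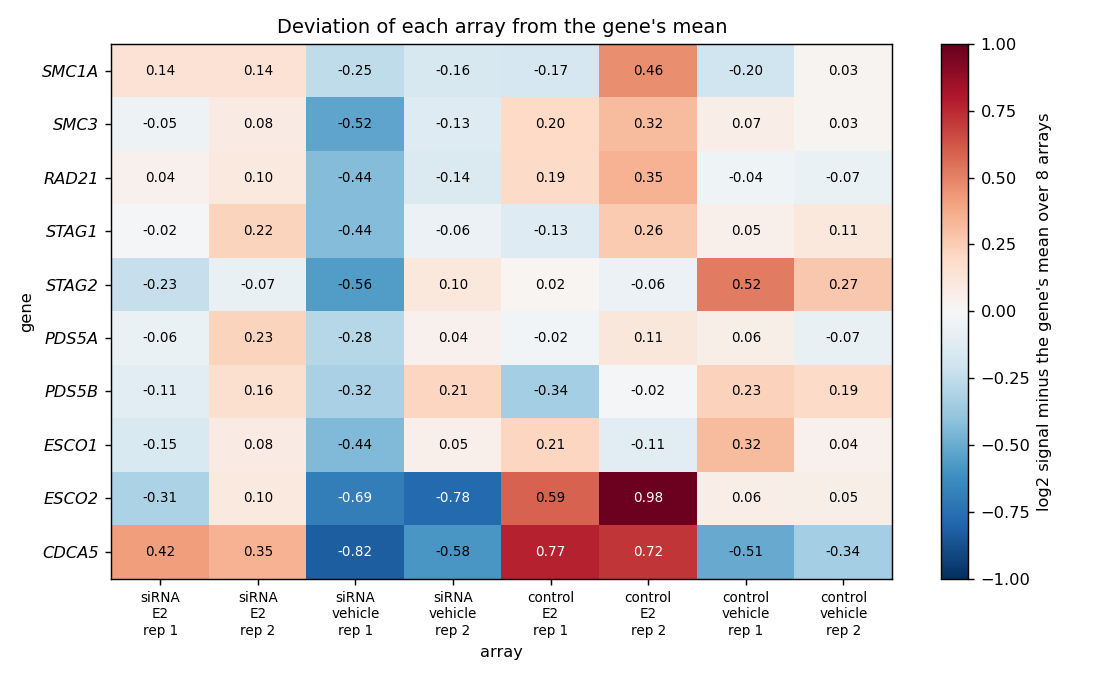
Log2 signal of each gene in each of the 8 arrays minus that gene's mean over the arrays, in columns by group and replicate, with blue for lower and red for higher. The column of 17β-HSD1 siRNA with vehicle, replicate 1, is blue for all 10 genes, and the ESCO2 and CDCA5 lines show the widest range.

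Genes that act with cohesin, or that belong to germline cohesin, condensin or the SMC5/6 complex, were read as lists, 48 measured genes in 6 lists. Of these, 20 rose with E2, against 1.32% of the probe sets tested, and 0 fell. Leaving out single arrays lowered the count of rises to 8 and 9 for either array of 17β-HSD1 siRNA with E2 (replicates 2 and 1) and to 9 for the second array of control siRNA with E2. It was 12 when the first array of 17β-HSD1 siRNA with vehicle was dropped and 13 when the second of control siRNA with vehicle was, and 6 in a fit on all probe sets. The 5 genes of cohesin loading and release did not pass, with a median E2 change of 0.04. NIPBL, which loads cohesin, was at 0.04 ± 0.12, WAPL, which releases it, at 0.07 ± 0.12, and HDAC8, which deacetylates SMC3, at -0.17 ± 0.11. CTCF, which halts cohesin at its DNA sites, was at 0.10 ± 0.10.

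Among the factors that couple cohesion to replication, 6 of 13 measured genes rose with E2, with a median of 0.45. DSCC1, a subunit of the clamp loader that promotes cohesion, rose by 0.88 ± 0.16 (limma adjusted p = 0.021). The fork protein gene CLSPN rose by 0.83 ± 0.15, the sliding clamp gene PCNA by 0.71 ± 0.13, and RFC3 by 0.64 ± 0.12. The replisome linker gene WDHD1 rose by 0.60 ± 0.11 and FEN1 by 0.54 ± 0.10. CHTF18 and CHTF8, which encode partners of DSCC1 in that clamp loader, were at 0.08 ± 0.11 each and did not pass. This count was 0 without control siRNA, E2 replicate 2, 3 without control siRNA, vehicle replicate 2, and 1 without 17β-HSD1 siRNA, vehicle replicate 1 or either 17β-HSD1 siRNA, E2 array.

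Cohesin protection and cleavage genes of mitosis rose in 8 of 11 cases, with a median of 0.82. PLK1, the kinase that removes cohesin from chromosome arms, rose by 1.18 ± 0.14 (limma adjusted p = 0.00251). SGO1, which shields centromeric cohesin, rose by 1.13 ± 0.13, and PTTG1, the inhibitor of separase, by 1.10 ± 0.13. ESPL1, which encodes separase itself, rose by 0.83 ± 0.13, and the checkpoint kinase gene BUB1 by 1.04 ± 0.15. CDCA8, BIRC5 and HASPIN rose by 0.82, 0.64 and 0.59. SGO2 at 0.43 ± 0.14, AURKB at 0.54 ± 0.13 and INCENP at 0.33 ± 0.12 did not pass. With single arrays left out the count ran from 5, without 17β-HSD1 siRNA, E2 replicate 1, to 8, and it was 5 in the fit on all probe sets.

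Condensin, a related ring complex that compacts mitotic chromosomes, had 6 of 8 genes up with E2 and a median of 0.58. NCAPG rose by 0.94 ± 0.15, NCAPH by 0.80 ± 0.12, NCAPG2 by 0.77 ± 0.13, SMC4 by 0.63 ± 0.11, and SMC2 and NCAPD3 by 0.52 ± 0.11 each (limma adjusted p from 0.00619 to 0.0495). NCAPD2 at 0.52 ± 0.15 and NCAPH2 at 0.16 ± 0.11 did not pass. The count was 3 or fewer without control siRNA, vehicle replicate 2, control siRNA, E2 replicate 2, either 17β-HSD1 siRNA, vehicle array or either 17β-HSD1 siRNA, E2 array, with 1 as the lowest. The 7 measured genes of the SMC5/6 complex, which acts in DNA repair, and the 4 of germline cohesin did not pass, with medians of -0.05 and -0.08. The largest single value there was EID3 at -0.63 ± 0.21 (limma adjusted p = 0.285), and 1 SMC5/6 gene fell in a fit without control siRNA, vehicle replicate 2.

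With 17β-HSD1 siRNA, limma called 0 of the 48 genes, and 18 had an unadjusted p below 0.05, where 9.44% of all probe sets did. The lowest adjusted p was that of PTTG1 (-0.66 ± 0.13, limma adjusted p = 0.0571). NCAPG was at -0.70 ± 0.15, PLK1 at -0.63 ± 0.14, SGO1 at -0.62 ± 0.13 and CLSPN at -0.55 ± 0.15 (0.0783 to 0.17). Of the 48, 2 fell when the first array of 17β-HSD1 siRNA with vehicle was left out, and 1 when the first of control siRNA with E2 was. List medians were -0.10 for loading and release, -0.25 for replication-coupled cohesion, -0.32 for protection and cleavage and -0.42 for condensin. SMC5/6 and germline cohesin had medians of -0.02 and 0.08.

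**Figure D4:**
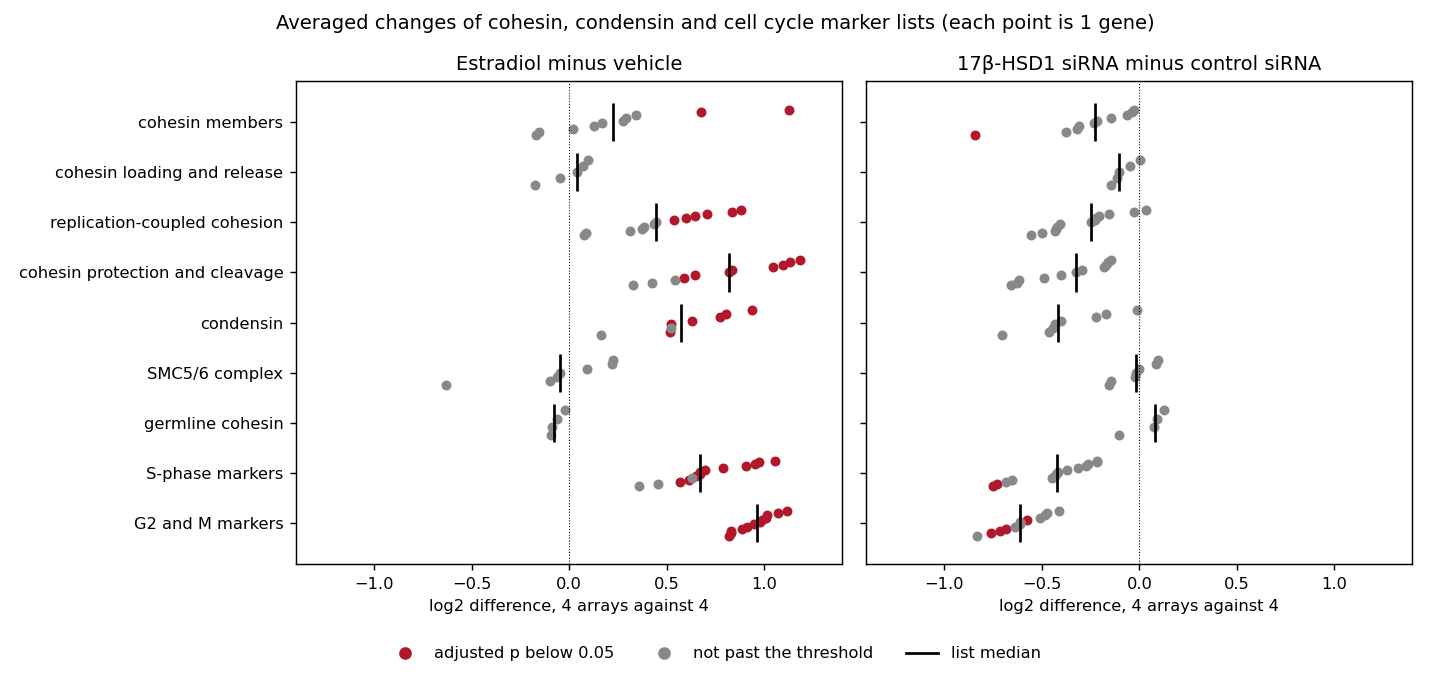
Averaged log2 changes of each gene (points) and the list median (line) for the cohesin genes, 6 lists of related complexes and 2 cell cycle marker lists, for E2 minus vehicle (left) and 17β-HSD1 siRNA minus control siRNA (right), with red for an adjusted p below 0.05. The medians with E2 run from -0.08 for germline cohesin to 0.96 for G2 and M markers.

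Cell cycle markers moved in the same arrays. Of all probe sets tested, 1.32% rose with E2 and 0.217% fell with 17β-HSD1 siRNA. Of 14 S-phase markers 11 rose with E2 (median 0.67) and 2 fell with 17β-HSD1 siRNA (median -0.42), CDC6 at -0.75 ± 0.12 and TYMS at -0.73 ± 0.13. All 12 G2 and M markers rose with E2 (median 0.96), and 4 fell with 17β-HSD1 siRNA (median -0.61), among them CCNB1 (-0.68 ± 0.11) and KIF20A (-0.76 ± 0.13). Fewer markers rose or fell in several fits with 1 array left out. Each such fit leaves 1 group with a single array, and the number of all probe sets that pass moves as well. The lost calls are therefore not a measure of these markers alone. The mean log2 signal of the S-phase list was 9.05 to 9.16 in 17β-HSD1 siRNA with E2, 8.30 to 8.39 in 17β-HSD1 siRNA with vehicle, 9.39 to 9.61 in control siRNA with E2 and 8.81 to 8.87 in control siRNA with vehicle. It therefore followed the group order of CDCA5 and RAD21. The part of cell cycle distribution in the changes of ESCO2 and CDCA5 was not tested.

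Interferon response genes moved with the siRNA as well. Of 8 measured, 4 rose with 17β-HSD1 siRNA, against 0.24% of all probe sets, and the list median was 1.51. IFI44L rose by 2.77 ± 0.32. The count was 0 with the trended robust spread, where 43 of 21214 probe sets rose. It moved both down and up when single arrays were left out. Each such fit leaves 1 group with a single array, and the number of all probe sets that pass moves as well. Their mean log2 signal was 10.4 to 10.6 in 17β-HSD1 siRNA with E2, 9.80 to 10.5 in 17β-HSD1 siRNA with vehicle, 8.22 to 9.69 in control siRNA with E2 and 8.31 to 8.78 in control siRNA with vehicle. Their part in the fall of ESCO2 was not tested. Estrogen targets changed with the medium, with 5 of 7 up under E2, GREB1 by 1.71 ± 0.12 and PGR by 1.04 ± 0.13, while limma called 0 for 17β-HSD1 siRNA, and 2 had an unadjusted p below 0.05.

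The genes whose pattern lay nearest to ESCO2 were found by the root mean square distance between centred log2 signals over the 8 arrays, among 18417 genes. They were DDIAS (distance 0.170), HELLS (0.172), TMPO (0.172), SHCBP1 (0.174) and CENPW (0.185), where the median gene lay at 0.591. HELLS encodes a chromatin remodeller of the SNF2 family, TMPO a nuclear lamina protein and CENPW a centromere protein. All 5 rose with E2, by 0.54 to 0.89. They were chosen by likeness over these same arrays, so changes like those of ESCO2 follow from the choice. TMPO and SHCBP1 also fell with 17β-HSD1 siRNA, by 0.73 and 0.68 on the log2 scale. Nearest to CDCA5 were CKS2 (0.138), H3C2 (0.167), CDCA8 (0.168), H2BC9 (0.177) and PRR11 (0.178), with the median gene at 0.623. CKS2 encodes a binding partner of cyclin-dependent kinases and CDCA8 a subunit of the chromosomal passenger complex. H3C2 and H2BC9 belong to histone families of near-identical copies, whose probe sets may share signal. All 5 rose with E2, by 0.82 to 1.03, and none of them passed with 17β-HSD1 siRNA. Their likeness to CDCA5 in these changes again follows from the choice.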

How the data were processed

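The 8 T47D samples, 2 per group, were each hybridised to 1 Affymetrix Human Gene 1.0 ST array. The deposited table holds 33297 probe sets as log2 signals. The log2 scale was read from the values deposited (2.42 to 15.2), and background correction, summarisation and normalization were steps not given in the sources used here. Array medians lay between 7.25 and 7.37, so no further scaling was applied. Precision is limited by the number of arrays, which leaves 4 residual degrees of freedom.

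Names came from GEO's platform annotation, and gene IDs were looked up in RefSeq, which updated 0 symbols (19460 with 1 symbol, 1754 with several, 12083 with none). The 21214 with a symbol entered limma 3.58.1 (R 4.3.3), which fitted each group's mean by lmFit and moderated the spread by eBayes. A call is an adjusted p (Benjamini-Hochberg) below 0.05. Of 135 list genes 130 had a single-symbol probe set. The procedure was tested on simulated data. Named are the 10 genes, HSD17B1, up to 4 genes per list by smallest p and any called, and the 5 nearest patterns to ESCO2 and to CDCA5, and a few list members below the threshold were named after their values were seen. The genes and lists were chosen with earlier results of these data known.

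The labels number the replicates and mention 2 culture experiments without tying one to the other. Deviations of same-numbered arrays correlated at 0.31 to 0.44 for 4 of 6 pairs of groups, and at 0.01 and -0.20 for control siRNA with vehicle against the 17β-HSD1 siRNA groups with E2 and with vehicle. The numbers were therefore not taken to pair the arrays, and no value is given by experiment. Alternatives were the replicate number as a block, all probe sets, a filter on dim probe sets (below the 25th percentile), quantile normalization, a trended robust spread and leaving out each array.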

Additional observations from a re-analysis of the deposited data

How the results depend on the processing

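With the replicate block, the filter on dim probe sets and the trended robust spread, the same genes of the 10 were called as in the report in all 7 contrasts, so the block changed no call among them. Of the related genes and markers, the replicate block changed these counts: with 17β-HSD1 siRNA 5 of the 48 genes fell in place of 0 (CLSPN, SGO1, PTTG1, PLK1, NCAPG), 4 S-phase markers in place of 2, 7 G2 and M markers in place of 4, and 8 interferon genes rose in place of 4, where 131 probe sets fell in place of 46 and 154 rose in place of 51. With E2 it added AURKB and CDC45, and within E2 and within vehicle 45 and 37 probe sets passed for 17β-HSD1 siRNA in place of 0. A block with the numbers of control siRNA, vehicle crossed, chosen after seeing the data, also called 2, 1, 1 and 1 genes (E2 averaged, siRNA averaged, E2 after 17β-HSD1 siRNA, E2 with control siRNA). When probe sets with no symbol joined the fit, those counts were 1, 0, 0 and 0. Of all 33297 probe sets in it, 99, 0, 0 and 1 passed in the same contrasts. ESCO2 then had a limma adjusted p of 0.117 with E2 and 0.12 with 17β-HSD1 siRNA. That fit changed both the moderated spread and the adjustment, and the cause was not tested. After quantile normalization the count for E2 with control siRNA was 0, and the cause was not tested. Leaving out each array in turn gave 1 to 2, 0 to 1, 0 to 1 and 0 to 1 genes, with fewer arrays in each fit. Small changes turned sign in places. ESCO1 with E2 ran from -0.11 to 0.14 over the arrays left out, and with 17β-HSD1 siRNA SMC1A ran from -0.22 to 0.10, PDS5A from -0.12 to 0.042 and PDS5B from -0.16 to 0.10. PDS5A was also at 0.0058 after quantile normalization, where the cause was not tested. Of 300 values compared for single genes, 277 kept direction and side of the threshold, 12 lost the call, all of ESCO2, and 11 turned sign. Each of the 10 genes had 1 probe set, so a mean over probe sets gave the reported value, which was counted among the 300 without a new fit. The blocks, the fit on all probe sets, the dim filter and the trended robust spread also left each change as it was. Direction could therefore turn only after quantile normalization or with an array left out. With 2 arrays a group, a change near 0.3 on the log2 scale, such as those of RAD21 and SMC3, did not pass.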
